A study of Homo sapiens with 96 samples.

Results

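The lincRNAs expressed in hTERT-RPE1 cells numbered 95 of the 20695 genes listed for nuclear nascent RNA. A gene was a member when the authors' table typed it as lincRNA and its mean over the 12 nuclear nascent libraries was at least 1 RPKM, a read count divided by gene length in kilobases and by library size. Of 3011 lincRNAs in that table, 111 reached this level, and 16 of them were set aside by name, among them MALAT1, NEAT1, NORAD, MEG3, MANCR, PURPL, LINC01705 and the snoRNA host genes whose names start with SNHG. With the test used here, 8 of the 16 differed between synchronised and asynchronous cells in nuclear input RNA, so the remaining list holds fewer such genes than the expressed lincRNAs as a whole. The members were chosen by their level in nuclear nascent RNA, so differences in that RNA are a description here: counts past the threshold there favour genes that are high in the 10 window libraries, and nothing is read from them. At the edge of the rule AF117829.1, LINC01465 and LINC00839 stood just inside with means of 1.01 RPKM each, and USP46-AS1, AC107068.1 and LINC01534 just outside with 0.991, 0.989 and 0.982 RPKM.

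hTERT-RPE1 is a human retinal pigment epithelial line made immortal with telomerase, and every group came from it. Per the labels' protocols, cells were synchronised for 22 h in 400 uM mimosine, an iron chelator that stops cells before DNA replication, and knockdown cells received 130 to 150 pmol of LNA GapmeRs, short antisense strands with locked ends that make RNase H cut their target. Nascent and input RNA of whole cells and of nuclei were each sequenced from asynchronous cells and from windows T0-2, T2-4, T4-6, T6-8 and T8-10 of S phase, with 2 libraries per group. Nascent RNA was also sequenced after knockdown of LINC00704 (named MANCR in the files), LUCAT1 or MIAT and after a control LNA. In synchronised cells these were taken at points S0, S2, S4 and S6 (2 libraries per point and arm), and in asynchronous cells as 3 knockdown against 2 control libraries per target. The labels do not give a unit for these window and point numbers. The 3 synchronised knockdown tables share their control libraries, as do the 3 asynchronous ones, and the labels do not say whether replicates were separate cultures, so the spread behind every p-value may be technical.

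Long intergenic noncoding RNAs are transcribed by RNA polymerase II from genes that lie between coding genes, and most are capped and spliced like messenger RNAs. Many stay in the nucleus, where some act on chromatin near their own gene, and others are exported or are broken down soon after they are made. A subset carries microRNA hairpins, which the enzyme Drosha cuts out of the nascent transcript, so that the long RNA is the precursor of a short regulator. XIST, which coats the inactive X chromosome, and the imprinted RNAs of the chromosome 14 MEG3 region are among the best known members.

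Reads per library ran from 6.39 to 28.6 M in the fraction tables, from 9.11 to 23.4 M in the synchronised knockdowns and from 26.4 to 50.5 M in the asynchronous ones. Replicates of the whole-cell input windows stood apart, with Pearson r over all genes between 0.715 and 0.825, against 0.974 for their asynchronous pair. The nuclear input pairs lay at 0.847 or above. In the asynchronous LUCAT1 knockdown, library 1 correlated at 0.886 with library 2. The mean of each targeted RNA was lower in its knockdown than in its control, at 0.948 against 3.13 RPKM for MANCR, 0.240 against 0.718 for LUCAT1 and 0.134 against 0.277 for MIAT in synchronised cells. Of 11 markers of retinal pigment epithelium, 3 (OTX2, KRT8 and KRT18) reached a mean of 1 RPKM in whole-cell input RNA, and RLBP1 and TIMP3 were not listed there. Of 8 markers of other cell types none reached 1 RPKM there.

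By name, 21 members carried a gene symbol, 18 a LINC number and 56 only a name made from a sequenced clone. A RefSeq entry was found for 46 of them. The largest group with a known product was the microRNA hosts: 11 members held mature microRNAs on their own strand (51 matures, 49 different), and MEG8 held another host site but has no strand in the table. The mature sequences below are those of hosts described in the comparisons, as RefSeq gives them on GRCh38.p14, with the seed (bases 2 to 8, which pair with target messenger RNAs) in capitals.
let-7a-5p, in MIRLET7BHG and MIRLET7A1HG: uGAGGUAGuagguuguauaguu
let-7b-5p, in MIRLET7BHG: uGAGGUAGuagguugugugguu
let-7f-5p, in MIRLET7A1HG: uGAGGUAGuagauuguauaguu
let-7d-5p, in MIRLET7A1HG: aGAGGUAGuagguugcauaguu
let-7i-5p, in AC048341.1: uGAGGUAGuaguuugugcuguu
miR-221-3p, in MIR222HG: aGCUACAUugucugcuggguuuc
miR-222-3p, in MIR222HG: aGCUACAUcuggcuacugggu
miR-181a-5p, in MIR181A1HG: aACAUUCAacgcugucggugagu
miR-181b-5p, in MIR181A1HG: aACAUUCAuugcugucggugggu
miR-137-3p, in MIR137HG: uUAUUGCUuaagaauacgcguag
miR-365b-3p, in AC003101.1: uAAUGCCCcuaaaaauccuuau
miR-155-5p, in MIR155HG: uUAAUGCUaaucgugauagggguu
The let-7 seed was shared by 5 matures from 3 host genes, MIRLET7BHG, MIRLET7A1HG and AC048341.1 (MIRLET7IHG in RefSeq), which lie on chromosomes 22, 9 and 12. The miR-221 and miR-222 pair shared one seed, and the miR-181a and miR-181b pair another, each within a single host. The libraries measured the long host RNA, and the mature microRNAs themselves were not measured.

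Most members were weakly expressed. Their mean in nuclear nascent RNA ran from 1.01 to 22.8 RPKM with a median of 1.64, and 60 of them were under 2 RPKM while 7 reached 5 RPKM. MIR222HG was highest at 22.8, followed by XIST at 9.93, AC058791.1 at 7.95, AC016831.5 at 6.93, AL117190.1 (current symbol MIR493HG) at 6.38, AC005261.1 at 5.77 and MEG8 at 5.18 RPKM. AC006058.1 (4.62), LINC01963 (4.61), AL365203.2 (4.50), AC002401.4 (4.41), AC048341.1 (4.36), LINC01561 (4.23), MIR137HG (3.85) and MIR181A1HG (3.38) completed the 15 highest means in RPKM. Of these 15, 5 were microRNA hosts by the strand-matched list or, for MEG8, by position. The deposited length had a median ratio of 1.00 to the RefSeq span of the gene, with 70.2% of 14027 genes within 5% of it, so for most genes these levels are per kilobase of gene body, introns included. For some members the gene models differ: the deposited length of MEG8 is 22799 bp against a RefSeq span of 109465 bp, and that of LINC00513 is 74930 against 8483 bp. The 86 members with a length had a median span of 3398 bp, with 49 under 5000 bp and 9 over 50000 bp. Protein-coding genes had a median span of 39121 bp.

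The members were followed by name into the other tables. 80 were listed in all 10 tables, and 79 to 95 passed the filter on low values (0.5 RPKM in at least 2 libraries) in a given table. 46 members could be placed on GRCh38.p14, of which 6 overlapped the span of a coding gene, 13 lay within 1000 bp of one and 12 lay more than 50000 bp away. Reads of the overlapping members and their partners may not be separable in the fraction tables, for which strand use in counting is not stated.

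The members stood higher in nuclei than most genes did. Over the 82 members measured in both, the median log2 difference of nuclear input minus whole-cell input RNA was 0.29, against -0.10 for all 8950 genes, -0.12 for protein-coding genes and 0.04 for other lincRNAs. 61 of the 82 members lay above the median of all genes. The tables were scaled separately and the members were chosen for their nuclear level, so these values are a description. With a pseudocount of 1 in place of 0.25 RPKM the median of the members was 0.19.

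The highest nuclear shares belonged to microRNA hosts and to the imprinted chromosome 14 region. AL117190.1 had a mean of 7.37 RPKM in nuclear and 1.63 in whole-cell input RNA, a log2 difference of 2.02. MEG8, a maternally expressed RNA of that region, had 6.30 against 1.46 RPKM (1.94), and MIR381HG of the same region had 2.49 against 0.590 (1.70). MIR222HG had 19.3 against 5.69 RPKM (1.72) and MIR181A1HG 3.33 against 0.917 (1.62). All 5 were higher in nuclei in each of the 6 conditions. PVT1, a neighbour of MYC, and CRNDE, named for its rise in colorectal tumours, stood at 0.82 and 0.94 on the same scale, and CYTOR at 0.23.

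At the other end, AL365356.5 (LASTR in RefSeq, an RNA that binds the splicing factor SART3) had 1.92 RPKM in nuclear and 5.40 in whole-cell input RNA, a log2 difference of -1.38. AC145207.5 had 1.87 against 4.67 RPKM (-1.21). AC005180.2 (-1.05) and AL035071.1 were also among the 5 lowest. In nuclei, nascent and input RNA held nearly the same levels of the members: the median log2 difference of nascent minus input was 0.00 over 85 members and -0.04 over all genes. LINC01293 (0.52) and AC006058.1 (0.37) stood highest in the nascent RNA, and AC010654.1 (-1.01), AC009065.4 (-0.77) and MIRLET7BHG (-0.59) lowest.

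**Figure D1:**
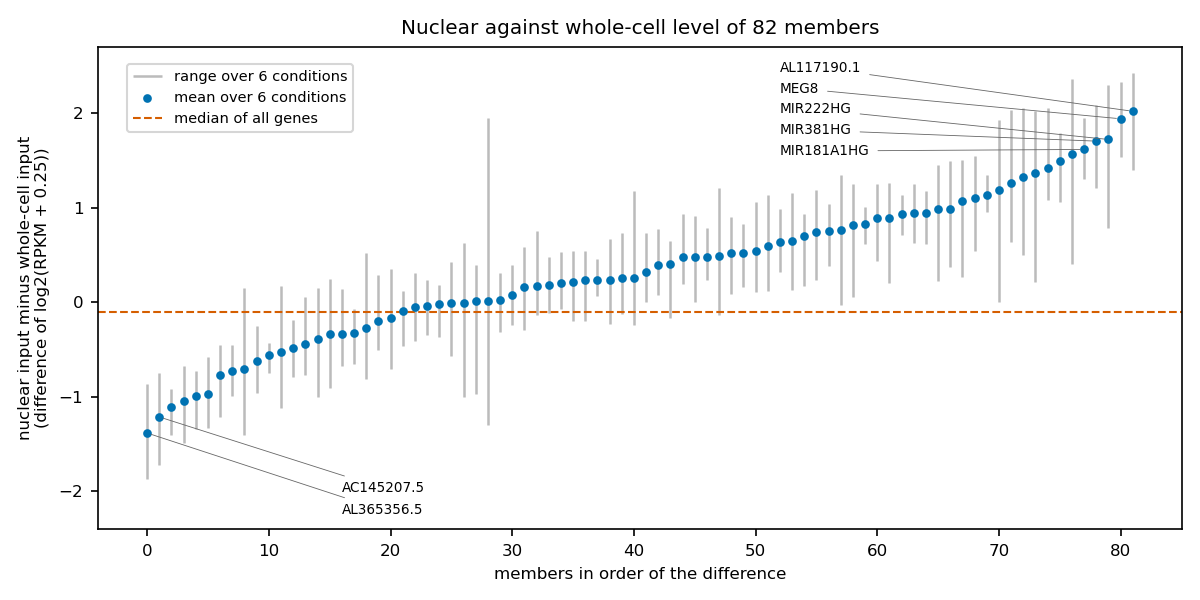
Difference of nuclear input minus whole-cell input RNA, in log2(RPKM + 0.25), for 82 members in order of that difference. Points are means over the 6 conditions (asynchronous cells and 5 windows), bars the range over them, and the dashed line the median of all genes (-0.10); 61 members lie above it, with AL117190.1 highest (2.02) and AL365356.5 lowest (-1.38).

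Members that differ between the S-phase windows and asynchronous cells were sought next. The window cells had been synchronised with mimosine, so S phase cannot be told apart from that treatment in this comparison. All log2 differences from here on are of log2(RPKM + 0.25), which understates the change of weak genes, and the test is limma with Benjamini-Hochberg adjustment over all genes of a table. Whether libraries overlapped is stated for named members only. The share of all genes without overlap was not counted. In nuclear input RNA 7 of 85 members (8.24%) passed an adjusted p of 0.05, against 4.57% of all genes, with 5 higher and 2 lower in the windows (1.96% and 2.61% of all genes). Among other lincRNAs the share was 8.37%, near that of the members. Nuclear input levels lay near the nascent levels that chose the members (median log2 difference 0.00). The count may therefore favour genes that are high in the windows, and it is given as a description. LINC02407, AC112721.2, AL353740.1, LINC01583 and AL133215.2 rose, and LINC01963 was one of those that fell. The median over the members was 0.07, against 0.00 over all genes.

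LINC02407 (LNCOG in RefSeq) had 0.464 and 0.533 RPKM in asynchronous nuclear input libraries, 2.61 and 1.49 in T0-2, 1.63 and 1.51 in T2-4, 1.72 and 2.15 in T4-6, 1.57 and 1.18 in T6-8, and 0.859 and 0.667 in T8-10. Every window library lay above both asynchronous libraries, by a log2 difference of 1.19 ± 0.20 (SE; adjusted p = 0.0156). AC112721.2 had 0.211 and 0.377 RPKM in asynchronous libraries, 1.97 and 1.66 in T0-2, 1.45 and 1.38 in T2-4, 2.03 and 1.39 in T4-6, 1.37 and 0.562 in T6-8, and 0.859 and 0.414 in T8-10 (log2 difference 1.44, adjusted p = 0.0304). Both genes were high in the early windows and came down by T8-10, where AC112721.2 remained above the asynchronous pair by a small margin. From asynchronous cells alone neither gene would have met the filter of 0.5 RPKM in 2 libraries, so both entered the test through their windows. Their differences are therefore a description, and nothing is read from their p-values or from the separation of their libraries.

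AL353740.1 had 0.769 and 1.15 RPKM in asynchronous nuclear input libraries, 6.14 and 2.53 in T0-2, 3.48 and 3.62 in T2-4, 3.82 and 4.02 in T4-6, 2.55 and 2.00 in T6-8, and 0.922 and 1.14 in T8-10 (1.29, adjusted p = 0.0384). Its T8-10 libraries overlapped the asynchronous ones. LINC01583 ran from 0.822 to 2.73 RPKM over the 10 window libraries, above the 0.611 and 0.526 of asynchronous cells (1.05, adjusted p = 0.0384). AL133215.2 ran from 1.18 to 1.98, above 0.982 and 0.798 (0.68, adjusted p = 0.0493).

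LINC01963 moved the other way. It had 6.67 and 5.94 RPKM in asynchronous nuclear input libraries and between 2.22 and 4.71 in the windows, lowest in T2-4 (-0.80, adjusted p = 0.0177). In whole-cell input RNA its window libraries fell apart by library, from 0.861 to 7.18 RPKM.

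In nuclear input RNA same-numbered libraries deviated together in every pair of groups (r from 0.63 to 0.86). With the replicate number as a block, 31 of 85 members passed there (21 higher, 10 lower), against 34.4% of all genes. Among those added, AC117402.1 (2.43), AL117190.1 (0.90) and MEG8 (0.60) were higher and MIR181A1HG (-0.84) was lower in the windows. Without the block, the number of members called fell to 0 when either asynchronous library was left out, to 3 without either T2-4 library, and to 4 without T4-6 library 1 or either T8-10 library. It was 4 with a pseudocount of 1 and 3 after quantile normalization. These counts without the block are not set beside all genes and show only how the calls depend on libraries and processing.

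**Figure D2:**
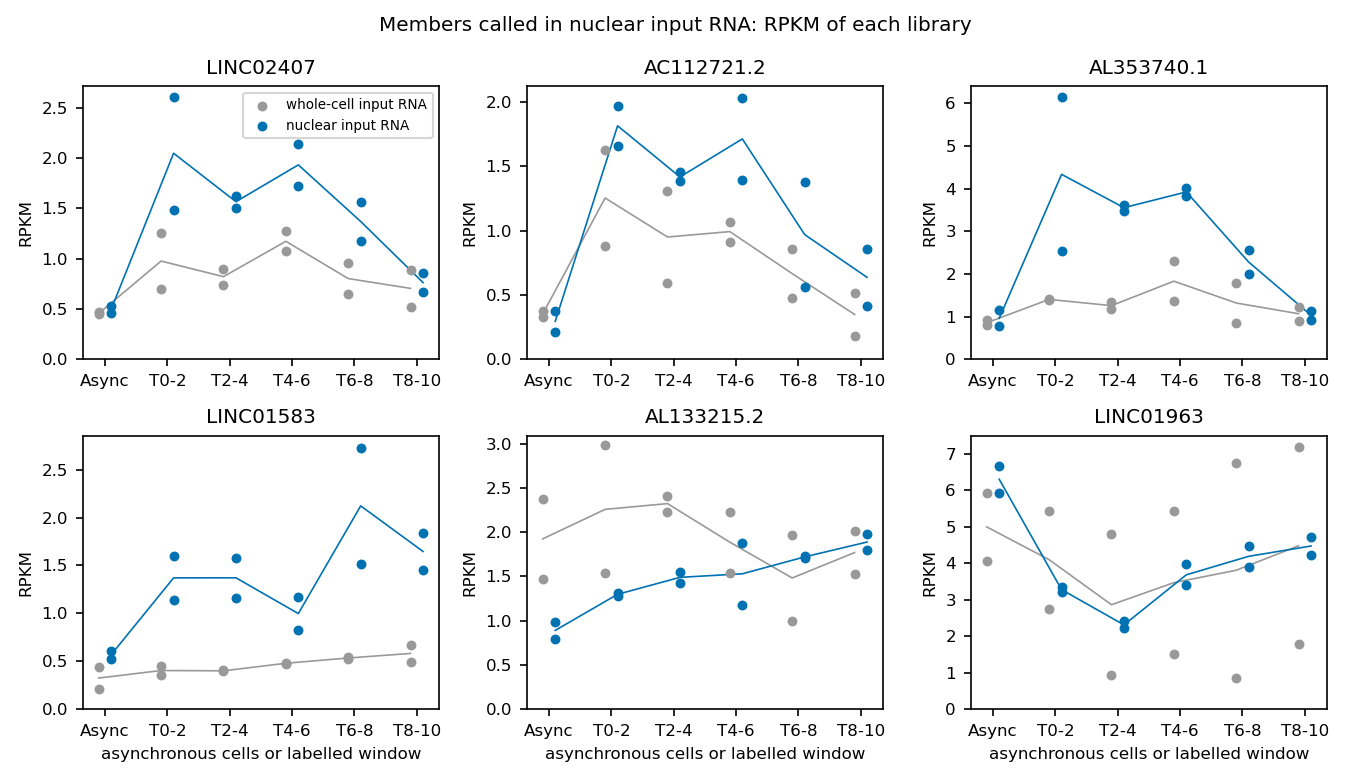
RPKM of 6 of the 7 members that passed in nuclear input RNA, in asynchronous cells and the 5 windows, with 1 point per library and lines through the group means; blue is nuclear and grey whole-cell input RNA. LINC02407, AC112721.2 and AL353740.1 are highest in windows before T8-10, and LINC01963 is lowest in T2-4 in nuclear RNA.

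AC117402.1 reached the level of the rule only through its window libraries in nuclear nascent RNA, so its difference there restates the choice of members. In input RNA of nuclei and of whole cells it likewise met the 0.5 RPKM filter only through its windows. Its differences there are a description too, and nothing is read from their p-values or from the separation of libraries. In nuclear input libraries AC117402.1 had 0.226 and 0.131 RPKM in asynchronous cells and 0.595 to 7.27 in the windows (log2 difference 2.43, adjusted p = 0.070). In nuclear nascent libraries it had 0.139 and 0.088 RPKM in asynchronous cells and 0.728 to 7.31 in the windows. Whole-cell input libraries had 0.156 and 0.114 RPKM in asynchronous cells and 1.08 to 12.4 in the windows (3.45, adjusted p = 0.175). The window libraries of these 3 tables lay above both asynchronous libraries, and in whole-cell nascent RNA the lowest window library (1.35 RPKM) met the higher asynchronous one (0.426 and 1.35 RPKM).

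In nuclear nascent RNA, which chose the members, 7 of 95 lay past the same threshold, beside 4.5% of all genes, from which nothing is read. Their log2 differences of windows minus asynchronous cells were 2.67 for AC117402.1, 1.63 for AL353740.1, 1.27 for AC112721.2, 1.21 for LINC02407, 1.02 for AC013451.2, 0.95 for LINC01583 and -0.68 for LINC00839. In nascent RNA of whole cells 0 of 89 members passed (18 at an unadjusted p below 0.05), beside 0.406% of all genes, and the median was 0.26 against 0.05 for all genes. In whole-cell input RNA 0 of 84 passed (14 at an unadjusted p under 0.05), beside 0.0305% of all genes. With a replicate block 4 passed, a count not read here because the share of all genes under that block is not given. Same-numbered window libraries deviated together there (median r 0.90 over pairs of groups), but not in every pair (lowest -0.56). FAM111A-DT, divergent to the gene of the replication-linked protease FAM111A, differed there by 1.34 for the mean of the 5 windows (adjusted p = 0.078). It had 0.465 and 0.616 RPKM in asynchronous cells and 2.06 and 2.62 in T8-10, which was 1.16 above T0-2 on the log2 scale. From asynchronous cells alone it would not have met the filter of 0.5 RPKM in 2 libraries. Its difference is therefore a description, and nothing is read from its p-value.

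Few members could be told apart between the last and the first window. Between T8-10 and T0-2, 0 of 89 members passed in nascent RNA of whole cells, 0 of 84 in their input RNA and 0 of 85 in nuclear input RNA, with 9, 7 and 13 at an unadjusted p under 0.05, beside 0%, 0% and 0.415% of all genes (0.27% higher and 0.145% lower in the last). In nuclear nascent RNA, given as a description, the log2 differences of LINC02407 and AC112721.2 were -1.45 and -1.40; they were the 2 of 95 members past the threshold, beside 0.358% of all genes. With the replicate block in nuclear input RNA, 17 members passed (12 higher and 5 lower), beside 22.2% of all genes: LINC01561 (1.21) rose, and AL353740.1 (-1.72), LINC02407 (-1.14) and AC112721.2 (-1.26) fell. Counting the window with the highest mean, 20 of 85 members (23.5%) peaked in T0-2 in nuclear input RNA, where 19.6% of all genes did. In whole cells 15 of 89 (16.9%) did so in nascent RNA and 17 of 84 (20.2%) in input RNA, where 20.1% and 23.7% of all genes did. In T6-8 the shares lay further apart in whole-cell nascent RNA, at 31.5% of members and 15.4% of all genes. They were 25.9% and 19.1% there in nuclear input RNA, and 7.14% and 8.48% in whole-cell input RNA. These shares were not tested. In control nascent RNA of the knockdown series, 0 of 84 members passed between S6 and S0 (14 at an unadjusted p under 0.05), beside 0.0741% of all genes.

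No microRNA host passed the test in the window comparison without the replicate block, and their levels differed between fractions. MIR222HG, which carries the miR-221 and miR-222 sequences above, had 3.02 and 6.77 RPKM in asynchronous whole-cell nascent libraries, 14.7 and 7.79 in T0-2, 10.5 and 4.79 in T2-4, 10.3 and 5.29 in T4-6, 11.3 and 9.68 in T6-8, and 13.3 and 5.5 in T8-10 (0.91, adjusted p = 0.414). In whole-cell input RNA it had 10.5 and 13.0 RPKM in asynchronous cells, 7.57 and 6.02 in T0-2, 5.11 and 2.00 in T2-4, 7.09 and 3.01 in T4-6, 5.46 and 2.54 in T6-8, and 9.46 and 5.85 in T8-10 (-1.21, adjusted p = 0.474). The window libraries thus averaged above the asynchronous ones in nascent RNA and below them in input RNA, and neither difference passed. In nuclear nascent RNA MIR222HG had 23.1 and 23.5 RPKM in asynchronous cells and 36.3 and 37.0 in T0-2, then 11.6 to 25 in the later windows. The let-7 hosts MIRLET7BHG (-0.20), MIRLET7A1HG (-0.27) and AC048341.1 (-0.43) had log2 differences below 0 in nuclear input RNA, with adjusted p from 0.493 to 0.856.

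**Figure D3:**
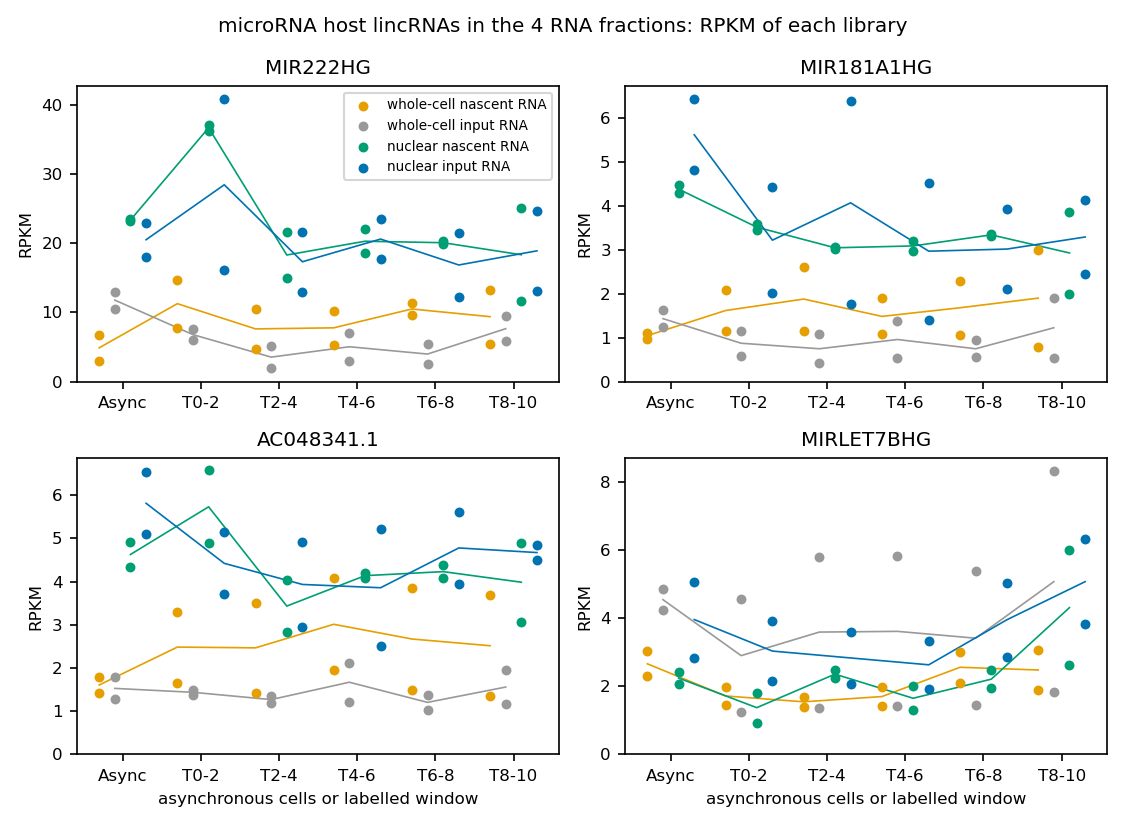
RPKM of 4 microRNA hosts in the 4 RNA fractions, in asynchronous cells and the 5 windows, with 1 point per library and lines through the group means. MIR222HG reached 36.3 and 37.0 RPKM in nuclear nascent RNA at T0-2, and 3 of the hosts stand higher in nuclear than in whole-cell RNA, while MIRLET7BHG does not.

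Knockdown of LINC00704 changed no member by the test. In synchronised cells 0 of 84 passed (22 at an unadjusted p under 0.05), beside 0.0212% of all genes, with a median of 0.16 against 0.05 for all genes. In asynchronous cells 0 of 79 passed (9 at an unadjusted p under 0.05), beside 0.0557% of all genes. The synchronised count rose when knockdown library 3 at S0 was left out, a change that was not set beside all genes and is not read here. AL365356.5 lies 916914 bp from the target on chromosome 10, and MIR222HG differed by 0.54 (adjusted p = 0.282) in synchronised cells.

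Knockdown of LUCAT1 in synchronised cells changed 23 of 85 members (27.1%), 19 higher and 4 lower, beside 27.2% of all genes (19% higher and 8.12% lower), so the share of members was that of all genes. The largest rise was that of AL391095.3, a log2 difference of 1.81 ± 0.35 (adjusted p = 0.0054). It had 0.811, 1.37 and 5.06 RPKM (lowest, median and highest of 8 knockdown libraries) against 0.198, 0.357 and 0.534 in the controls. AL391095.3 was not listed for the synchronised LINC00704 or MIAT knockdown, which share these controls. It thus entered the test through its LUCAT1 knockdown libraries, and nothing is read from its p-value. AC005180.1 had 1.59, 2.10 and 2.52 RPKM against 0.532, 0.816 and 1.44 (1.08 ± 0.16, adjusted p = 0.0014). Neither gene overlapped between the arms, but both were picked among the largest rises, so this is a description. AC117402.1 was lower in the knockdown, with 0.728, 1.55 and 2.41 RPKM against 2.61, 3.20 and 6.69 and no overlap (-1.23 ± 0.20, adjusted p = 0.0022). LINC01638 had 1.49, 2.68 and 5.65 RPKM against 3.49, 5.12 and 8.12 (-0.94, adjusted p = 0.0038), with overlapping arms. AP005233.2 (-0.85) and LINC01833 (-0.34) were the other lower calls, and LINC01833 missed the threshold in 11 of the 16 fits that each left out 1 library.

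Among the microRNA hosts, AC048341.1 rose by 0.92 (adjusted p = 0.0172), MIR181A1HG by 0.83 (0.0080), MIRLET7A1HG by 0.52 (0.0333) and MIR155HG by 0.43 (0.0382) on the log2 scale in the synchronised LUCAT1 knockdown. 2 of these carry the let-7 seed printed above, and the third let-7 host, MIRLET7BHG, differed by 0.10 (adjusted p = 0.597). The other strand-matched hosts differed by 0.29 (MIR222HG), 0.24 (MIR137HG), 0.20 (MIR29B2CHG), 0.08 (AC009065.4), -0.08 (MIR381HG) and -0.34 (AC003101.1). In this comparison 27.2% of all genes passed, so the rises are not read as a trait of the hosts. CRNDE rose by 0.73 (adjusted p = 0.0193, and 0.0506 without control library 1 at S6), while PVT1 (-0.08) and CYTOR (-0.11) did not pass. LINC00513 (0.94), AC026461.3 (0.91), MAPKAPK5-AS1 (0.84), AC005180.2 (0.82) and LINC00839 (0.67) also rose. After quantile normalization, which moved the median of all genes from 0.11 to -0.01, 18 members passed, 9 in each direction, and all genes split into 922 higher and 1154 lower in place of 1879 and 801. The balance of directions therefore depends on the scaling, and MAPKAPK5-AS1 no longer passed. The counts with 1 library left out, given next, are not set beside all genes. They show only how the calls depend on single libraries. With 1 library left out, MAPKAPK5-AS1 missed the threshold in 12 of 16 fits and AC005180.2 in 7. The count was 12 without control library 2 at S0, 13 without either control library at S2, 14 without control library 1 at S6 or knockdown library 2 at S2, and 15 without control library 1 at S4, control library 2 at S6, knockdown library 2 at S0 or knockdown library 1 at S4.

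In asynchronous LUCAT1 knockdown cells 0 of 81 members passed (14 at an unadjusted p under 0.05), beside 0.209% of all genes. The 3 knockdown libraries differed among themselves: LINC01561 had 19.2, 1.76 and 1.95 RPKM there against 7.96 and 8.28 in the controls. Without knockdown library 1, 41 members passed (17 higher and 24 lower) and 4563 genes in all.

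Knockdown of MIAT in synchronised cells changed 15 of 85 members (17.6%), 13 higher and 2 lower, beside 7.63% of all genes (4.84% higher and 2.79% lower). Other lincRNAs (24.1%, 57 higher and 11 lower) and antisense genes (19.4%) had larger shares than the members. The median over the members was 0.13, against -0.03 over all genes. LINC00513 had 2.06, 4.22 and 6.02 RPKM (lowest, median and highest of 8 knockdown libraries) against 0.742, 0.916 and 1.19 in the controls, a log2 difference of 1.69 ± 0.22 (adjusted p = 0.0009). AL365203.2 had 4.80, 7.95 and 11.2 RPKM against 1.91, 2.56 and 3.40 (1.45 ± 0.21, adjusted p = 0.0016), and LINC01561 had 5.79, 9.05 and 17.8 against 2.69, 3.95 and 4.36 (1.28 ± 0.22, adjusted p = 0.0045). The arms did not overlap for any of these 3 genes, which were picked among the largest rises, so this is a description.

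AC006058.1 had 2.53, 5.48 and 14.3 RPKM against 1.02, 2.03 and 3.58 (1.34 ± 0.26, adjusted p = 0.0082), and AC108134.2 had 2.99, 6.02 and 12.9 against 0.796, 2.42 and 4.07 (1.51 ± 0.34, adjusted p = 0.017), both with overlapping arms. AC005261.1 had 7.75, 9.95 and 11 RPKM against 5.15, 6.09 and 7.65 without overlap (0.63, adjusted p = 0.0096). AC002401.4 (0.89), MEG9 of the imprinted chromosome 14 region (0.83), AL080317.2 (0.69), MIR181A1HG (0.69) and AC005479.1 (0.64) also rose. AC005479.1 was not listed for the synchronised LINC00704 or LUCAT1 knockdown, which share these controls. It thus entered the test through its MIAT knockdown libraries, and its rise, counted among the 13, is a description. LINC01638 fell, with 2.25, 2.91 and 4.48 RPKM against 3.49, 5.12 and 8.12 (-0.81 ± 0.16, adjusted p = 0.0107), and AL133215.2 with 0.170, 0.870 and 1.45 against 1.39, 1.68 and 2.51 (-0.95, adjusted p = 0.0151). LINC01638 is the nearest to MIAT of the 46 members that could be placed: it spans bases 27221350 to 27224679 of chromosome 22, 544872 bp from the targeted gene. It was also lower in the knockdowns of LUCAT1 (-0.94 in synchronised and -1.16 in asynchronous cells) and LINC00704 (-0.41 and -0.34). Of these only the synchronised LUCAT1 difference passed. A relation between its fall and the distance to MIAT was not tested. LINC00513, AL365203.2, LINC01561, AC006058.1, LINC01638 and AL133215.2 passed with any 1 of the 16 libraries left out. AC108134.2 missed the threshold without control library 2 at S0 (adjusted p = 0.0565), MIR181A1HG without any of 5 libraries, AC002401.4 and MEG9 without any of 8, AL080317.2 of 10 and AC005479.1 of 11. 11 members passed after quantile normalization, and the 2 calls lost among those named were AL080317.2 and AC005479.1. This count and those given next are not set beside all genes and show only how the calls depend on processing and single libraries. The count was 8 without control library 2 at S2, control library 1 at S6 or knockdown library 2 at S0, and 9 without control library 2 at S0 or knockdown library 2 at S2.

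In asynchronous cells the MIAT knockdown changed 39 of 80 members (48.8%), 27 higher and 12 lower, beside 43.7% of all genes and 64.8% of other lincRNAs. Of all genes 12.6% were higher and 31.1% lower, and the medians were 0.09 over the members and -0.12 over all genes. Of the 6 members given next, all but AC026461.3 had also risen in synchronised cells. LINC00513 had 1.21 and 1.17 RPKM in the controls and 4.80, 6.40 and 5.32 in the knockdown (1.99 ± 0.13, adjusted p = 0.0002), AC108134.2 had 3.41 and 3.29 against 11.5, 20.1 and 16.1 (2.13, adjusted p = 0.0009), and AC026461.3 had 0.546 and 1.04 against 1.92, 6.13 and 5.82 (2.11 ± 0.47, adjusted p = 0.0112). AC002401.4 had 6.21 and 7.21 RPKM in the controls and 21.8, 19 and 15.4 in the knockdown (1.44, adjusted p = 0.0013). AL365203.2 had 2.99 and 3.64 against 8.41, 10.3 and 8.94 (1.41, adjusted p = 0.0007), and LINC01561 had 7.68 and 7.99 against 13.6, 14.4 and 12.6 (0.77, adjusted p = 0.0022). In each of these 6 every knockdown library lay above both controls. They were picked among the largest rises, so this separation largely follows from the choice and is not a further result. AC090617.5 (1.11), AC005261.3 (0.90), LINC01293 (0.88), AC010969.2 (0.85) and AL360093.1 (0.81) also rose. So did LINC01963 (0.70), LINC02407 (0.63) and AL353740.1 (0.61) of the window comparison, with adjusted p of 0.0039, 0.0043 and 0.0019. AC026461.3 missed the threshold without control library 1 (adjusted p = 0.077).

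Of the 10 strand-matched microRNA hosts tested, 7 passed in asynchronous MIAT knockdown cells, 4 higher and 3 lower, again beside 43.7% of all genes. MIR222HG had 6.65 and 7.84 RPKM in the controls and 10.2, 11.4 and 11.7 in the knockdown (0.60, adjusted p = 0.0071). MIR137HG had 1.25 and 1.29 against 1.78, 1.95 and 2.37 (0.58, adjusted p = 0.0091), and MIR181A1HG had 1.44 and 1.53 against 1.89, 2.42 and 2.63 (0.55, adjusted p = 0.016). The hosts of one seed family went apart: the let-7i host AC048341.1 had 2.49 and 2.63 RPKM against 2.88, 3.50 and 3.62 (0.34, adjusted p = 0.0488), the let-7a and let-7b host MIRLET7BHG fell from 4.49 and 4.32 to 2.79, 2.48 and 2.34 (-0.74, adjusted p = 0.0023), and MIRLET7A1HG differed by 0.05 (adjusted p = 0.711). AC003101.1, the miR-365b host, had 1.99 and 1.44 RPKM in the controls and 0.989, 0.842 and 0.842 in the knockdown (-0.77, adjusted p = 0.0049), and AC009065.4 fell by 0.42 on the log2 scale (adjusted p = 0.028).

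Other members that fell included ZKSCAN2-DT, with 1.30 and 1.04 RPKM in the controls and 0.646, 0.440 and 0.365 in the knockdown (-0.97, adjusted p = 0.0047), AC116021.1 (-0.92), AC026471.4 (-0.74), AP006621.3 (-0.68), AP005233.2 (-0.60) and AC110048.2 (-0.48). AP006621.3 (GATD1-DT in RefSeq) fell together with its coding partner GATD1 (-0.79, adjusted p = 0.012). In contrast GAS6-DT rose by 0.41 (adjusted p = 0.041) where GAS6, which encodes a ligand of the TAM receptor kinases, fell by 0.41 on the same scale (adjusted p = 0.014). Of 27 members measured here with their nearest coding gene, 16 had the same sign as that gene (Pearson r = 0.39). With 31.1% of all genes lower, a joint fall is not read as a relation of the pair. LINC01638 had 6.39 and 5.54 RPKM against 4.69, 4.31 and 4.23 (-0.41, adjusted p = 0.0183, and 0.25 after quantile normalization). PVT1 (0.07), CRNDE (0.07), CYTOR (-0.06) and MEG8 (0.00) did not pass. After quantile normalization, which moved the median of all genes from -0.12 to -0.03, 37 members passed (28 higher and 9 lower), while all genes split into 1358 higher and 1701 lower in place of 1155 and 2861. The count was 22 without control library 1, where AP006621.3 (adjusted p = 0.0508) and LINC01638 no longer passed; the latter also missed it without knockdown library 2. The count without control library 1 is not set beside all genes. Overlap of the arms was judged on 2 control libraries, which limits how firmly separation of the arms can be read.

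The synchronised and asynchronous MIAT experiments used separate libraries. Of 77 members tested in both, 14 passed in synchronised and 37 in asynchronous cells, and 10 passed in both in the same direction (71.4% of the first list and 27% of the second), 9 higher and 1 lower, with 0 in opposite directions. The 10 were AC002401.4, AC006058.1, AC108134.2, AL080317.2, AL360093.1, AL365203.2, LINC00513, LINC01561 and MIR181A1HG, all higher, and LINC01638, lower. 13 of the 14 synchronised calls had the same sign in asynchronous cells. Over all 8401 genes tested in both, 469 passed in both in the same direction, 78.4% of the synchronised calls and 12.7% of the asynchronous ones, and 9 passed in opposite directions.

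**Figure D4:**
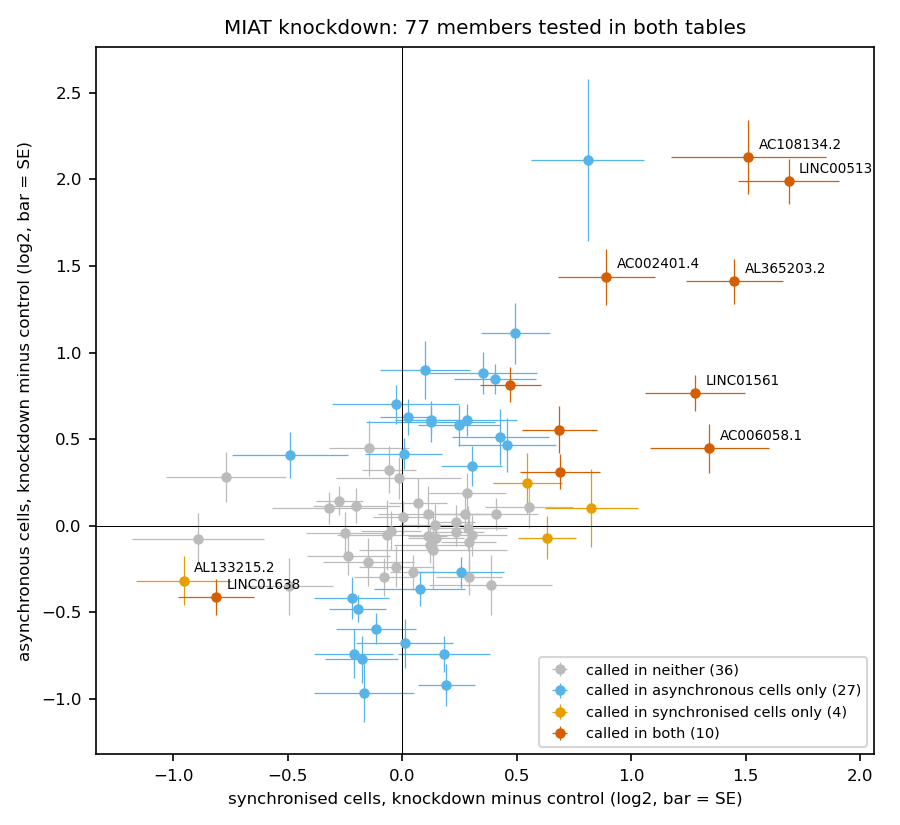
Log2 difference of knockdown minus control for the 77 members tested in both MIAT experiments, with asynchronous cells on the vertical and synchronised cells on the horizontal axis; bars are SE and colours show where a member passed. LINC00513 (1.99 and 1.69), AC108134.2 (2.13 and 1.51) and AL365203.2 (1.41 and 1.45) are high on both axes, and LINC01638 (-0.41 and -0.81) is low on both.

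LINC00513 and LINC01561 rose in both MIAT experiments and have a RefSeq start site. Their promoters are shown from 250 bases before to 50 after that start on GRCh38.p14, which may differ from the gene model the authors counted. Capitals mark matches, on either strand, to the motifs searched. These were the E-box CACGTG, with its inner part ACGTG searched as well, the AP-1 site TGACTCA, the CCAAT box, the TATA box as TATAAA, the GC box as GGGCGG, the E2F site as TTTGGCGC and the p53 half-site.
LINC00513, chr7:130913214-130913513, plus strand: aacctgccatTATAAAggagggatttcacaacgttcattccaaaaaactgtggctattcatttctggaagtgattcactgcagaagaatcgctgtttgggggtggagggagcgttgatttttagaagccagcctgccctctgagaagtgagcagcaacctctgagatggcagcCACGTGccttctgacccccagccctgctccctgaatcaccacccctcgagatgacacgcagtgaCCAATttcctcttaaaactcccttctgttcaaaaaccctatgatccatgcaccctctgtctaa
LINC01561, chr10:120597699-120597998, plus strand: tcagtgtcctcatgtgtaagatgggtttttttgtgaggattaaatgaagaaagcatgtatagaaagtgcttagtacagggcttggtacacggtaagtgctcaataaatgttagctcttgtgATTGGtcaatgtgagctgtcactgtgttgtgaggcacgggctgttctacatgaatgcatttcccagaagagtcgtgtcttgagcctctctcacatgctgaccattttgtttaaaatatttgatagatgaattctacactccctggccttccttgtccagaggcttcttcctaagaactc
The LINC00513 window held 1 CACGTG, 1 CCAAT and 1 TATAAA, and had a GC content of 49.3%. The LINC01561 window held 1 CCAAT. Of all 35116 promoters in the table, 7.26% held CACGTG, 34.6% CCAAT and 11.5% TATAAA, and of the 36 promoters of members 3, 14 and 5 did. TGACTCA was found in 4 of the 36 (4.95% of all promoters), GGGCGG in 16 (45.0%), the p53 half-site in 1 (6.63%) and TTTGGCGC in 0 (0.652%). The median GC content was 55.5% for the members and 58.7% for all promoters.

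Of the lists by role, the growth and cancer lincRNAs PVT1, CRNDE and CYTOR gave 1 call over all tested comparisons, that of CRNDE in the synchronised LUCAT1 knockdown. PVT1 had log2 differences between -0.83 (S6 against S0 in control cells, adjusted p = 0.334) and 0.36 over the 15 comparisons. In the authors' deposited table for asynchronous cells, an FDR under 0.05 was reached by 30 higher and 16 lower of 84 members for MIAT (54.8%, against 56.8% of all its genes). The authors' deposited table for LUCAT1 had 15 higher and 19 lower members (all genes 44.6%), and that for LINC00704 3 higher and 1 lower (all genes 7.41%). Those are the authors' values, by a test the headers do not name.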

How the data were processed

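Values were the RPKM per gene and library that the authors deposited in 10 tables, with 91 of 96 samples as columns; the other 5, chromatin samples, were not analysed here. Per the submitters' processing notes, the tools were STAR 2.5.3, HOMER 4.10.3, featureCounts 1.6.1 and edgeR without a version for all 96 samples, and Bowtie2 2.3.4.3 for 85; the build was hg38. Those notes state neither order nor role. The asynchronous tables also hold the authors' deposited log2 fold change, p-value and FDR, of which only the FDR was counted here. Reads per library were recovered from the RPKM steps.

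limma 3.58.1 in R 4.3.3 was run on log2(RPKM + 0.25) within each table, over genes that reached 0.5 RPKM in 2 or more libraries, with a mean trend and Benjamini-Hochberg adjustment over all genes tested; an adjusted p under 0.05 was a call. The window effect is the average of the 5 window groups minus the asynchronous group, and the synchronised knockdown effect the average over 4 points. Synchronised columns carry replicate numbers that differ from the sample titles, so they were mapped to groups only. The numbers were taken to pair libraries where every pair of groups deviated together with r over 0.1, which held in nuclear input RNA (r 0.63 to 0.86 over 15 pairs); the pairing is read from the data, not from the labels. In whole-cell input RNA the median was 0.90 but the lowest -0.56, and the asynchronous knockdowns have 1 pair each. The tests were also run on simulated data, from which nothing is drawn here.

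Named members are the called ones with the largest differences (up to 10 per direction and comparison), the 15 highest, the 5 at each end of the fraction differences, the role lists and the edge of the rule. FAM111A-DT, LINC00941 and members added by the block were chosen after their values were seen. The members and lists were chosen with earlier results of these data known. Figures were drawn with Python 3.11.15, pandas 2.3.3 and matplotlib 3.10.9. 1 member is counted but not reported here by name.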

Additional observations from a re-analysis of the deposited data

Results flagged for a closer look

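MIR222HG, the host of miR-221 and miR-222, had opposite directions in the whole-cell fractions: the log2 difference of windows minus asynchronous cells was 0.91 in nascent RNA and -1.21 in input RNA. All window group means lay above the asynchronous mean in the first and below it in the second. The difference between the fractions was not tested.

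LINC00941 differed by -0.27 in synchronised and by 0.15 in asynchronous MIAT knockdown cells. The difference between them was not tested.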

How the results depend on the processing

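Alternatives were a pseudocount of 1, no filter on low values, quantile normalization, a replicate block and leaving out each library. Counts of called members that left the range of 1.5 times were as follows. With the block the share of all genes is given for nuclear input RNA only (34.4% for the windows, 22.2% for T8-10 against T0-2). The other block counts are therefore not read as a result about the members. Counts below with a pseudocount of 1, without the filter or after quantile normalization are not set beside all genes either. They show only how the calls depend on the processing. Windows against asynchronous cells gave 1 with a pseudocount of 1, 1 after quantile normalization and 6 with the block in whole-cell nascent RNA, and 4 with the block in whole-cell input RNA. They gave 2 without the filter and 3 after quantile normalization in nuclear nascent RNA, and 4 with a pseudocount of 1, 3 after quantile normalization and 31 with the block in nuclear input RNA. T8-10 against T0-2 gave 0 without the filter in nuclear nascent RNA and 17 with the block in nuclear input RNA. The block gave 1 in the asynchronous LINC00704 knockdown and 7 in that of LUCAT1, where same numbers mark only 1 pair of groups; it changed no other count by over 1.5 times.

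With 1 library left out, the windows gave 0 to 5 called members for nuclear input, 0 to 8 for nuclear nascent, 0 to 1 for nascent RNA of whole cells and 0 to 0 for their input. T8-10 against T0-2 gave 0 to 8 in nuclear nascent RNA and 0 to 0 in the other 3, as did S6 against S0. The synchronised knockdowns gave 0 to 12 (LINC00704), 12 to 29 (LUCAT1) and 8 to 16 (MIAT), and the asynchronous ones 0 to 0, 0 to 41 and 22 to 44. The nuclear nascent count of 7 was 0 without either asynchronous library. In tests with the lone library of a group, it is assumed to vary like the others. The counts in this paragraph are not set beside all genes and show only how the calls depend on single libraries.

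For the members named with a call, 519 of 706 values stayed past the threshold with 1 library left out, and 197 of 222 under the other alternatives, with 0 reversed. The cause of these changes was not tested. The comparisons other than the synchronised knockdowns were also fitted with a block, as given above. For the 3 synchronised knockdowns no paired analysis was possible because the replicate numbers of the columns do not match those of the sample titles. The 2 control libraries limit the asynchronous comparisons.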
